A study of Rattus norvegicus with 6 samples.

Results

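DNA replication and G1/S genes are the genes whose products license origins, open and copy the DNA, supply its building blocks and start S phase. A list of 40 such symbols was matched to the gene names of a table of 34510 genes, and 39 were found. The symbol E2f1 named no row, so that gene is not analysed here. The row named Necab3, whose description also cites the E2F1 protein, was not counted as a member (1.91 ± 0.0986 FPKM in Bgal and 1.82 ± 0.0962 in Trim28, SD, n = 3 each, limma adjusted p = 0.753).

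The table gives poly(A) RNA of neonatal rat ventricular cardiomyocytes, primary heart muscle cells from newborn rats grown in culture, as FPKM, fragments per kilobase of gene scaled to the size of the library. The study asked how TRIM28 acts in ferroptosis, an iron-dependent form of cell death, in these cells. There were 3 libraries labelled Bgal and 3 labelled Trim28. The Trim28 cells received an adenovirus that expresses TRIM28, a chromatin corepressor. The labels neither spell out Bgal nor say which virus those cells received, and give no strain, dose, time or batch. Whether each library had its own culture is also unstated, so p-values measure only how these samples vary, and that variation may be technical. Reads assigned to genes ranged from 26146166 to 34593292 per library. Trim28 itself stood at 81.6, 87.8 and 77.6 FPKM in the Bgal libraries and at 2923, 2890 and 980 FPKM in the Trim28 libraries, so every library labelled Trim28 lay above every one labelled Bgal, with replicate 3 the lowest of its group.

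Before S phase, the origin recognition complex with CDC6 and CDT1 loads the ring of MCM2 to MCM7 onto DNA. CDC45 and the GINS complex then turn that ring into the active helicase, and polymerases, the PCNA clamp, its RFC loader and the single-strand binding protein RPA copy the DNA behind it. Cyclin E and E2F factors drive the entry into S phase. Heart muscle cells largely leave the cell cycle around birth, and cultures of neonatal cells also hold cycling non-muscle cells. In bulk RNA, fewer cells of a type and less RNA per cell cannot be told apart.

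E2F factors act through short GC-rich elements near the start of many of these genes, and the promoters were therefore searched for them. Promoters from RefSeq (build GRCr8, from 250 bases before to 50 bases after the start) matched 33 of the 40 symbols. The motifs searched were TTTCCCGC, TTTGGCGC, TTTCGCGC and TTTGCCGC on both strands, with overlapping matches allowed and each promoter counted once. At least 1 match stood in 15 of the 33 member promoters, or 45.5%, against 415 of 10455 promoters of tested genes (3.97%) and 716 of all 33469 promoters (2.14%). A match was present in 3 of 6 promoters of members that fell, in 0 of 3 of members that rose and in 12 of 24 of members that did not pass. Among further replication and G1/S genes 23 of 70 promoters held a match (32.9%), and among mitosis genes 1 of 21 (4.76%). These counts are descriptions of sequence and were not tested.

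Sequences are shown for the 5 members with the smallest p among those given library by library below whose window holds a match, to show where the element stands. They are read on the gene's strand with the match in capitals. For Tyms, which fell, and Gins3, which did not pass, the whole stretch before the start is printed.
Tyms (GRCr8, chr9:120776084-120776333, minus strand): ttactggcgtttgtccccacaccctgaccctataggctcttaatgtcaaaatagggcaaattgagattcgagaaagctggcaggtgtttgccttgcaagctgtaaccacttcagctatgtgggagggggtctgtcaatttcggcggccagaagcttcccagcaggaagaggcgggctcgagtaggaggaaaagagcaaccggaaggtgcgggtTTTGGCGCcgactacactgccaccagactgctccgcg
Gins3 (GRCr8, chr19:9434680-9434929, minus strand): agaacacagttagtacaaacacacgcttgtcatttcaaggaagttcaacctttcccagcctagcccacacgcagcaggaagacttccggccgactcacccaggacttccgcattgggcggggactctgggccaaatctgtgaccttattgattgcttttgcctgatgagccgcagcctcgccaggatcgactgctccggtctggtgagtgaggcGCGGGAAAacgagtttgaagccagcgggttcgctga

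In Rfc3 and Mcm3, which both fell, and in Rpa2, which did not pass, the matches cross or follow the start, so only 24 bases around the match nearest the start are shown.
Rfc3 (GRCr8, chr12:5836557-5836580, plus strand): tcgcagccTTTCGCGCtcgcggga
Mcm3 (GRCr8, chr9:30733737-30733760, minus strand): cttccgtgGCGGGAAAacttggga
Rpa2 (GRCr8, chr5:150260771-150260794, plus strand): acgccggaGCGGCAAAcacttctt

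In the Tyms promoter the match began 37 bases before the start, in Gins3 36 bases before it, counting back from the first transcribed base.

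Most of the replication machinery did not pass the test, and the members that did moved in both directions. A gene was tested if 3 or more libraries had 0.5 FPKM or more. All 39 members met this, Cdc45 through its 3 Bgal libraries and only 1 Trim28 library. On log2(FPKM + 1), where changes of low genes are understated, limma at an adjusted p under 0.05 called 8 members lower and 3 higher. That is 20.5% and 7.69% of the members, beside 21.1% lower and 20.1% higher among all 14808 tested genes. In either direction it was 28.2% beside 41.2%. The share that fell was near the background, and the share that rose was below it. The libraries of the groups did not overlap for 14 members that were lower and 5 that were higher, or 35.9% and 12.8%, beside 27.7% and 26% of all tested genes (53.8% in either direction). The median log2 difference was -0.11 over the members and -0.02 over all tested genes. A difference below 0 was found for 28 of 39 members and for 7748 of all 14808 tested genes. A difference of at least 0.5 on this scale in either direction was reached by 4 members, or 10.3%, and by 18.3% of all tested genes, and 0 members reached 1.

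**Figure D1:**
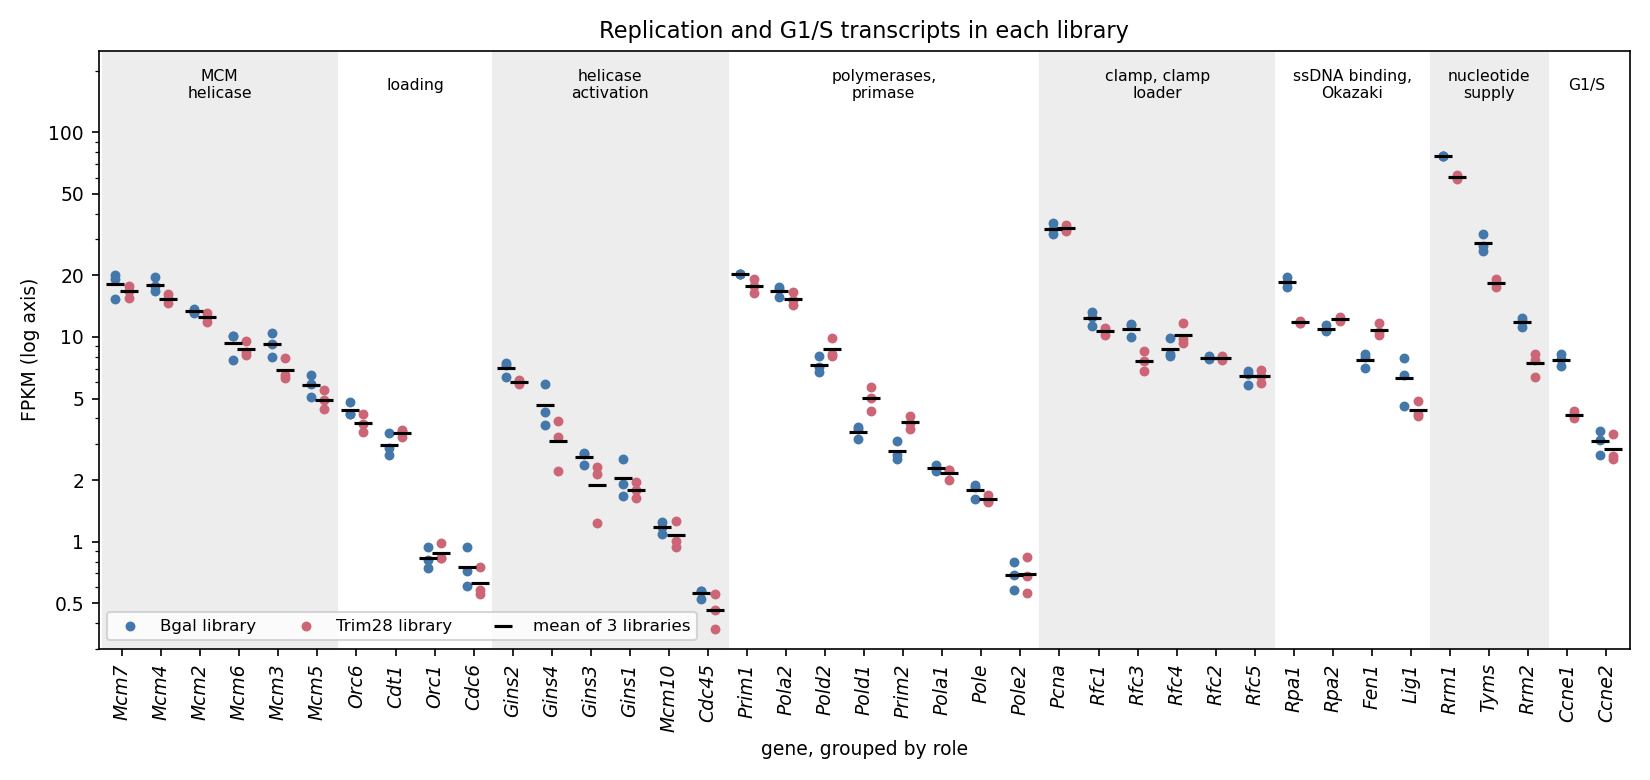
FPKM of the 39 members in each library on a log axis, blue points for the 3 Bgal and red points for the 3 Trim28 libraries, with black bars for group means. Rrm1 is highest in both groups and Cdc45 lowest. The points of 20 members overlap between the groups, as do those of 6843 of all 14808 tested genes. In 14 members, Rpa1, Tyms, Rrm1, Rrm2 and Ccne1 among them, they separate downwards (35.9%, beside 27.7% of all tested genes). In 5, Fen1 and Pold1 among them, they separate upwards (12.8%, beside 26%).

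The members covered a wide range of levels. Rrm1 was the highest in the Bgal libraries at 76.7 ± 0.255 FPKM, then Pcna at 33.7 ± 2.09, Tyms at 28.6 ± 2.94 and Prim1 at 20.3 ± 0.0863 (SD, n = 3). In the Bgal libraries each of these 4 stood above the next gene by more than the sum of their SDs. The means of the same 4 led in Trim28, where Rrm1 and Pcna were set off by more than that sum, while Tyms, Prim1 and the next gene, Mcm7, lay within it of each other in turn. In Bgal, Rpa1, Mcm7, Mcm4 and Pola2 at ranks 5 to 8 each lay within that sum of the next among them, and Pola2 lay above the gene after it, Mcm2, by more. At the low end were Orc1, Cdc6, Pole2 and Cdc45, between 0.834 and 0.559 FPKM, and their order was not resolved by their spread. The median member had 7.30 FPKM, beside 7.98 over all tested genes, and members carried between 25 and 10520 reads per library.

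All 3 members that supply the building blocks of DNA fell, where 21.1% of all tested genes did. Of 12 other nucleotide supply genes 5 fell, 1 rose and 6 were not called. Rrm1 and Rrm2 encode the large and the small subunit of ribonucleotide reductase, which makes deoxyribonucleotides. Rrm1 (ENSRNOG00000045752, chromosome 1, 167538263 to 167562688, plus strand, build not given in the sources used here) stood at 76.8, 76.8 and 76.4 FPKM in Bgal and at 59.0, 61.6 and 60.7 FPKM in Trim28. The groups lay far apart relative to their spread, and the log2 difference was -0.34 with an SE of 0.04 (limma adjusted p = 0.00058). Rrm2 (ENSRNOG00000054286, chromosome 6, 43884678 to 43889515, plus strand) had 11.2, 12.4 and 11.9 FPKM in Bgal and 6.39, 8.25 and 7.69 FPKM in Trim28, again without overlap. Its log2 difference was -0.61 with an SE of 0.09 (limma adjusted p = 0.00224).

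A near copy of Rrm2, LOC100359539, took between 37.3% and 52.2% of the reads of the pair, so the split between them is uncertain. Both rows together had 23.8, 26.2 and 23.7 RPM (reads scaled to library size) in Bgal and 15.7, 16.0 and 14.6 in Trim28, which did not overlap either. Tyms encodes thymidylate synthase, which makes the thymidine nucleotide (ENSRNOG00000037225, chromosome 9, 121918947 to 121931564, minus strand). It had 27.8, 31.9 and 26.2 FPKM in Bgal and 18.5, 19.3 and 17.5 FPKM in Trim28, all lower. Its mean fell by 35.7%, and the log2 difference was -0.61 (SE 0.08, limma adjusted p = 0.00103).

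Of the 2 cyclin E genes, Ccne1 fell and Ccne2 did not pass, where 21.1% of all tested genes fell. Ccne1, a cyclin that activates CDK2 at the entry into S phase (ENSRNOG00000014786, chromosome 1, 94485832 to 94494980, minus strand), had 7.80, 8.21 and 7.21 FPKM in Bgal and 4.0, 4.33 and 4.19 FPKM in Trim28. No library overlapped, and this was the member with the largest log2 difference, -0.76 with an SE of 0.08 (limma adjusted p = 0.000401), a mean lower by 46.1%. Its paralog Ccne2 had 3.15, 2.66 and 3.49 FPKM in Bgal and 2.52, 2.63 and 3.36 FPKM in Trim28, which overlapped, and it did not pass (log2 difference -0.10, 95% confidence interval -0.39 to 0.19, limma adjusted p = 0.565). Ccne2 overlaps Ints8 on the other strand by 521 bases and is uncertain, since no source used here gives the strand setting of the counting. The difference between the 2 genes was not tested.

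The genes of single-strand binding and of joining Okazaki fragments, the short pieces of the lagging strand, moved in both directions. Of these 4 genes 25% fell and 25% rose, beside 21.1% and 20.1% of all tested genes. Rpa1, the large subunit of the single-strand binding protein RPA (ENSRNOG00000003123, chromosome 10, 62140419 to 62191512, minus strand), had 19.6, 18.5 and 17.6 FPKM in Bgal and 11.7, 12 and 11.7 FPKM in Trim28. It fell with a log2 difference of -0.61 and an SE of 0.06 (limma adjusted p = 0.000294), the smallest p of all members. Rpa2, the middle subunit of the same complex, had 10.6, 11.4 and 10.9 FPKM in Bgal and 12.5, 12.3 and 12 FPKM in Trim28. Its Trim28 values were all higher, but it did not pass (log2 difference 0.15, 95% confidence interval 0.02 to 0.28, limma adjusted p = 0.0705).

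Fen1, the nuclease that trims the flaps of Okazaki fragments (ENSRNOG00000020531, chromosome 1, 226251518 to 226255886, minus strand), rose. It had 8.25, 7.94 and 7.09 FPKM in Bgal and 11.7, 10.2 and 10.6 FPKM in Trim28, without overlap, with a log2 difference of 0.43 and an SE of 0.08 (limma adjusted p = 0.00467). Lig1, the ligase that seals the fragments, was not called (6.33 ± 1.65 FPKM in Bgal and 4.41 ± 0.404 in Trim28, limma adjusted p = 0.0793). Without Bgal replicate 3, or in limma-voom (adjusted p = 0.00984), it was called lower. Its near copy LOC100911727 took from 3.95% to 44.4% of the reads of the pair in Bgal and from 5.68% to 44.6% in Trim28, so the split is uncertain.

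**Figure D2:**
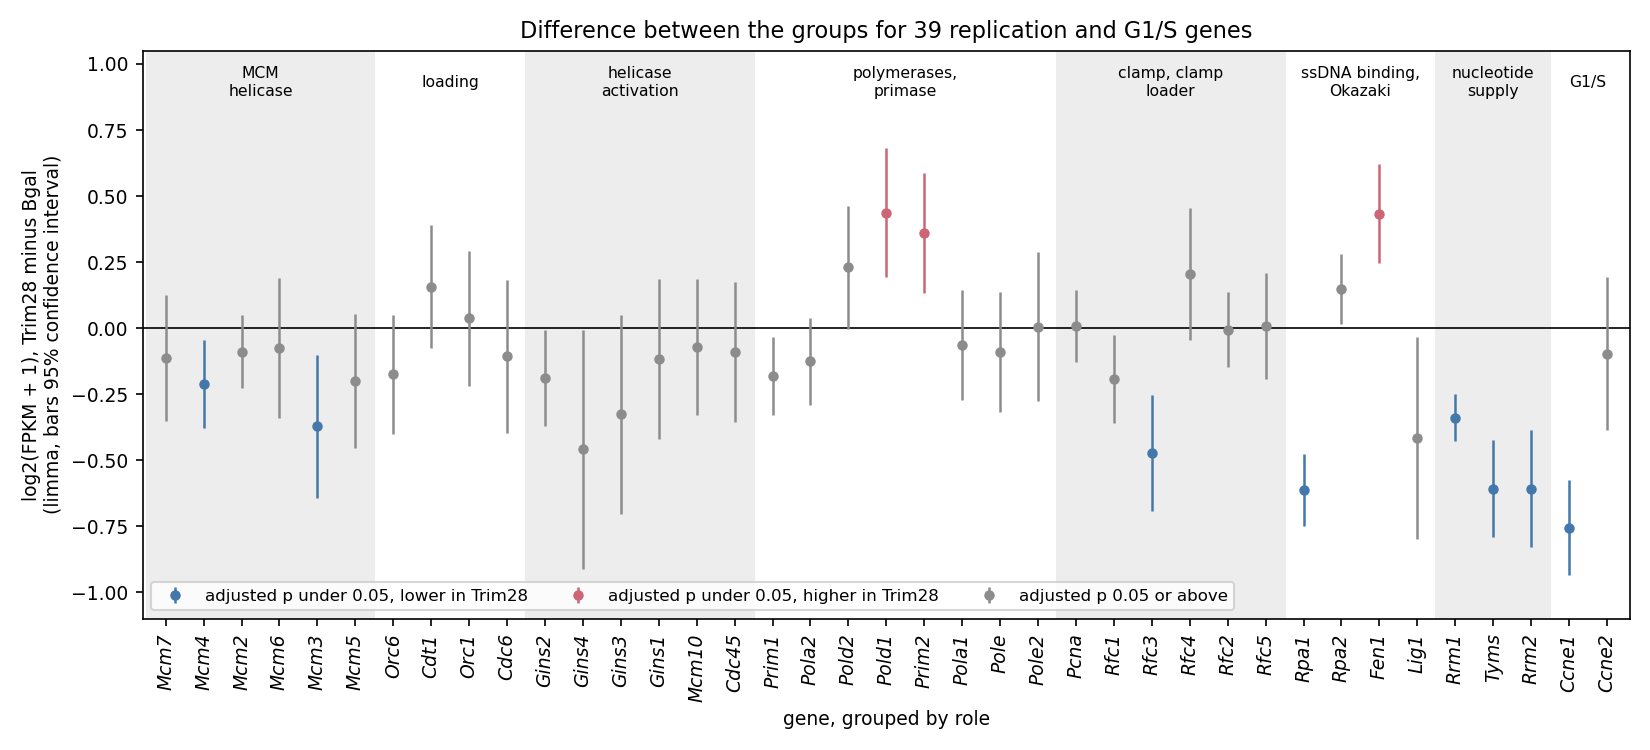
Difference of log2(FPKM + 1), Trim28 minus Bgal, with its 95% confidence interval from limma for each of the 39 members, grouped by role. The 8 members that fell are blue, the 3 that rose red, and the 28 that did not pass grey. All 3 nucleotide supply genes are blue, and the polymerase group holds 2 of the 3 red points.

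Of the 6 subunits of the MCM ring, 2 fell and 4 did not pass, with all 6 differences below 0. That is 33.3% lower, beside 21.1% of all tested genes. Of all 14808 tested genes, 7748 had a difference below 0. Mcm3 (ENSRNOG00000012543, chromosome 9, 26914057 to 26932201, minus strand) had 10.5, 9.25 and 7.98 FPKM in Bgal and 6.27, 7.89 and 6.54 FPKM in Trim28. The highest Trim28 library lay just under the lowest Bgal library, and the log2 difference was -0.37 with an SE of 0.12 (limma adjusted p = 0.0363). Mcm4 (ENSRNOG00000001833, chromosome 11, 89511191 to 89524892, plus strand) had 19.5, 16.7 and 17.8 FPKM in Bgal and 16.2, 15.4 and 14.6 FPKM in Trim28, and its log2 difference was -0.21 (SE 0.07, limma adjusted p = 0.0492).

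Both calls rested on a narrow margin. That of Mcm3 was lost without Bgal replicate 1 (limma adjusted p = 0.112), Bgal replicate 2 (0.085), Trim28 replicate 1 (0.107) or Trim28 replicate 3 (0.0887). That of Mcm4 was lost without any replicate except Bgal replicate 2, with limma adjusted p from 0.0632 to 0.15, and with either other scaling of the libraries (0.0503 and 0.0507). Mcm5 had 5.92, 6.50 and 5.07 FPKM in Bgal and 5.50, 4.89 and 4.43 FPKM in Trim28, which overlapped (limma adjusted p = 0.18). Mcm2, Mcm6 and Mcm7 had log2 differences between -0.11 and -0.08 and did not pass, with limma adjusted p from 0.264 to 0.627. Without Bgal replicate 3 the log2 difference of Mcm7 was -0.23 and passed (limma adjusted p = 0.0479). The most abundant subunit, Mcm7, stood 3.13-fold above the least, Mcm5, in Bgal and the same range of subunits spanned 3.38-fold in Trim28.

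Of the 4 genes that recognise origins and load the ring, 0 were called by limma, 0 had an unadjusted p under 0.05, and 0 were called by limma-voom on reads recovered from the table. Limma called 41.2% of all tested genes. Orc6, a subunit of the origin recognition complex, had 4.83, 4.19 and 4.21 FPKM in Bgal and 3.77, 4.19 and 3.43 FPKM in Trim28, without overlap by a thin margin (log2 difference -0.18, 95% confidence interval -0.40 to 0.05, limma adjusted p = 0.183). Cdt1, which brings the ring to the origin, had 2.88, 3.38 and 2.64 FPKM in Bgal and 3.51, 3.49 and 3.24 FPKM in Trim28 (log2 difference 0.16, limma adjusted p = 0.243). Cdc6, its partner in loading, had 0.719, 0.937 and 0.611 FPKM in Bgal and 0.552, 0.750 and 0.583 FPKM in Trim28. The groups overlapped for Cdt1, Cdc6 and Orc1, and Orc1 had 55 to 83 reads per library.

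Genes that activate the helicase gave 0 calls of 6 in limma and 0 in limma-voom, with 2 at an unadjusted p under 0.05, and all 6 differences were below 0. Limma called 41.2% of all tested genes, and 7748 of 14808 had a difference below 0. Gins2 had 7.46, 7.29 and 6.41 FPKM in Bgal and 6.10, 5.89 and 6.17 FPKM in Trim28, all lower (log2 difference -0.19, 95% confidence interval -0.37 to -0.01, limma adjusted p = 0.0881). Without Bgal replicate 3 it passed (limma adjusted p = 0.0474). Gins4 had 5.92, 4.31 and 3.72 FPKM in Bgal and 2.21, 3.25 and 3.90 FPKM in Trim28, a wide spread with overlap (log2 difference -0.46, 95% confidence interval -0.91 to -0.01, limma adjusted p = 0.0955).

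Gins3 had 2.36, 2.72 and 2.67 FPKM in Bgal and 1.23, 2.33 and 2.14 FPKM in Trim28, without overlap, and did not pass (limma adjusted p = 0.146). The value in Trim28 replicate 1 stood apart from the other 2 of its group. Gins1, Mcm10 and Cdc45, the helicase partner at the lowest level of all members, had log2 differences between -0.12 and -0.07 with limma adjusted p from 0.506 to 0.64. Cdc45 overlaps Cldn5, listed at 0 in every library, on the other strand by 1425 bases. How reads of the shared stretch were assigned is not given, so Cdc45 and the 0 of Cldn5 are uncertain.

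Among the 8 polymerase and primase genes 2 rose, 0 fell and 6 did not pass. That is 25% higher and 0% lower, beside 20.1% and 21.1% of all tested genes. At an unadjusted p under 0.05 in limma, 1 was lower, and limma-voom called 0 lower. Pold1, the catalytic subunit of polymerase delta, which copies the lagging strand (ENSRNOG00000019681, chromosome 1, 100537900 to 100554488, minus strand), had 3.54, 3.62 and 3.18 FPKM in Bgal and 5.04, 5.71 and 4.36 FPKM in Trim28. Every Trim28 library was higher, and the log2 difference was 0.44 (SE 0.10, limma adjusted p = 0.0135). Pold2, its partner subunit, was higher in every Trim28 library without being called (7.30 ± 0.690 FPKM in Bgal, 8.75 ± 1.03 in Trim28, limma adjusted p = 0.102).

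Prim2, the large subunit of primase, which lays the RNA primers (ENSRNOG00000012486, chromosome 9, 38536920 to 38745099, plus strand), had 2.64, 2.53 and 3.11 FPKM in Bgal and 3.81, 3.57 and 4.09 FPKM in Trim28. It rose with a log2 difference of 0.36 and an SE of 0.10 (limma adjusted p = 0.0213), a call that was lost without Bgal replicate 1 (0.068), Bgal replicate 2 (0.0652), Trim28 replicate 1 (0.0576) or Trim28 replicate 3 (0.0586). The catalytic primase subunit Prim1 went the other way, with 20.2, 20.3 and 20.3 FPKM in Bgal and 19.2, 17.8 and 16.4 FPKM in Trim28. It did not pass (log2 difference -0.18, 95% confidence interval -0.33 to -0.03, limma adjusted p = 0.0533). Leaving out Trim28 replicate 1 brought it past the threshold (0.0333). Pola1 and Pola2, which form polymerase alpha with primase, and Pole and Pole2 of polymerase epsilon had log2 differences between -0.13 and 0.00 and overlapping groups. Pola2 overlaps Cdc42ep2 on the same strand by 7643 bases of its gene span and is uncertain.

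The PCNA clamp, a ring that tethers the polymerases to DNA, was close in the 2 groups. Pcna had 35.9, 31.7 and 33.5 FPKM in Bgal and 35.3, 33.6 and 32.7 FPKM in Trim28. The 95% confidence interval of its log2 difference ran from -0.13 to 0.15 (limma adjusted p = 0.925). Of the RFC subunits that load the clamp, 1 of 5 fell, where 21.1% of all tested genes did. This was Rfc3 (ENSRNOG00000001088, chromosome 12, 1460538 to 1471357, plus strand). It had 11.4, 11.6 and 9.98 FPKM in Bgal and 8.5, 7.64 and 6.82 FPKM in Trim28, without overlap. Its log2 difference was -0.47 (SE 0.09, limma adjusted p = 0.00626).

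Rfc1, the largest RFC subunit, had 13.2, 11.3 and 12.5 FPKM in Bgal and 10.8, 10.2 and 11 FPKM in Trim28. It lay lower in every Trim28 library and did not pass (limma adjusted p = 0.0674), while limma-voom on recovered reads called it (adjusted p = 0.0301), as did limma without Bgal replicate 2 (0.0325). Rfc4 had 9.93, 8.03 and 8.27 FPKM in Bgal and 9.33, 11.6 and 9.75 FPKM in Trim28, which overlapped (log2 difference 0.21, limma adjusted p = 0.164). A pseudogene row described by the RFC4 protein also carried reads, so Rfc4 is uncertain. Rfc2 and Rfc5 had log2 differences of -0.01 and 0.01.

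**Figure D3:**
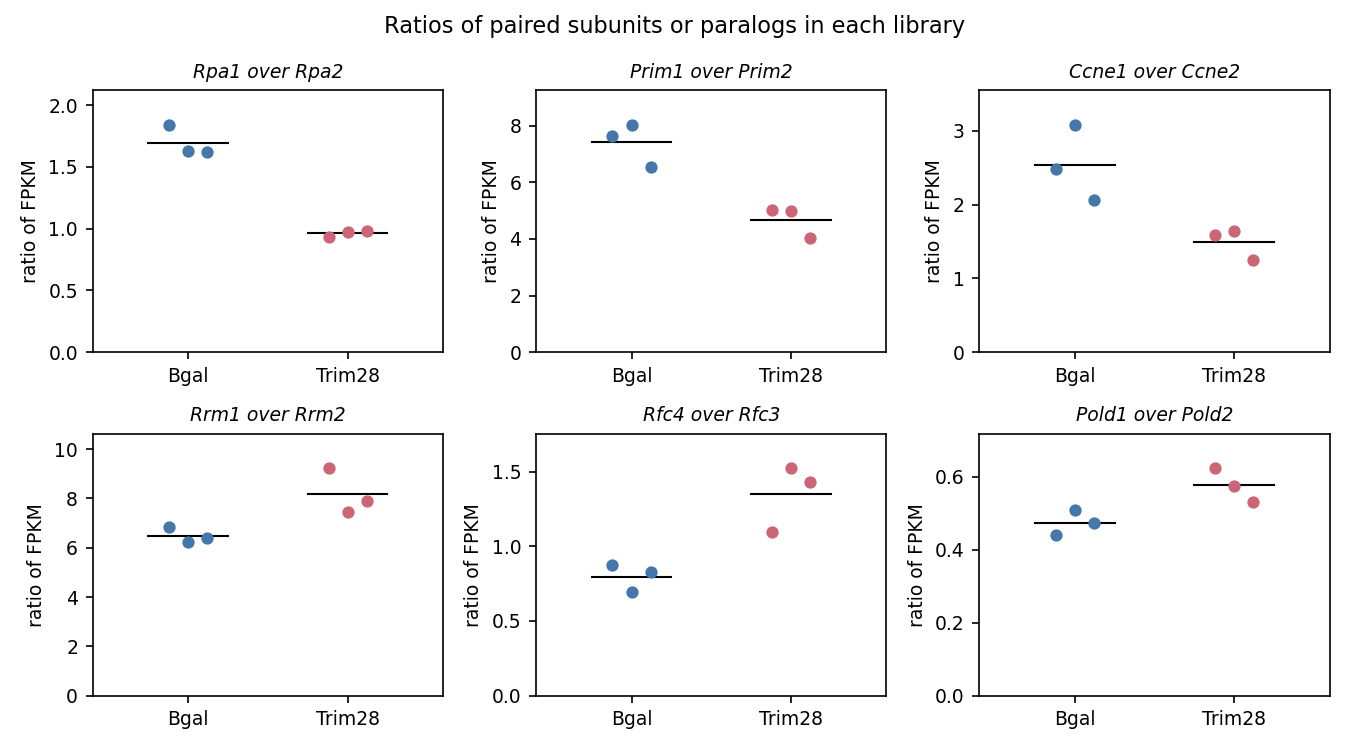
Ratio of FPKM for 6 pairs of subunits or paralogs in each library (blue Bgal, red Trim28, black bars the means, axes from 0). The Rpa1 to Rpa2 ratio lies between 1.62 and 1.84 in Bgal and between 0.933 and 0.979 in Trim28.

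Ratios within a library set partners of 1 complex, or the paralogs Ccne1 and Ccne2, side by side. These pairs were chosen after their values were seen, and the ratios are given without a test. The ratio of Rpa1 to Rpa2 was 1.84, 1.63 and 1.62 in Bgal and 0.933, 0.976 and 0.979 in Trim28. By FPKM, Rpa1 thus stood above Rpa2 in every Bgal library and just below it in every Trim28 library. Which side of 1 the Trim28 ratios fall on rests on the gene lengths used, 6085 and 2126 bases. In reads, Rpa1 stood above Rpa2 in every library. The ratio of Prim1 to Prim2 was 7.64, 8.03 and 6.55 in Bgal and 5.03, 5.00 and 4.02 in Trim28. That of Ccne1 to Ccne2 was 2.48, 3.08 and 2.07 in Bgal and 1.59, 1.65 and 1.25 in Trim28. The groups did not overlap in any of these 3 ratios. They did overlap in that of Pola2 to Pola1, which ran from 6.84 to 7.80 in Bgal and from 6.43 to 8.21 in Trim28 and is not plotted. The ratio of Rfc4 to Rfc3 lay below 1 in the Bgal libraries and between 1.10 and 1.52 in the Trim28 libraries.

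Further genes of the pathway, outside the members, gave 18 lower and 7 higher of 73 tested. That is 24.7% and 9.59%, beside 21.1% and 20.1% of all tested genes, and the median log2 difference was -0.07 beside -0.02. Among the other nucleotide supply genes counted above, those with the smallest p were Dut, Cad and Shmt1. Dut, which keeps uracil out of DNA, went from 47.8 ± 1.79 to 33.9 ± 1.65 FPKM, and Shmt1, an enzyme of one-carbon metabolism, from 9.49 ± 0.229 to 6.21 ± 1.07 FPKM (SD, n = 3 each, limma adjusted p = 0.000531 and 0.00556). Cad, which starts pyrimidine synthesis, rose from 7.82 ± 0.159 to 11.7 ± 0.295 FPKM (limma adjusted p = 0.000528).

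Among 28 other replication factors 5 fell and 1 rose. That is 17.9% and 3.57%, beside 21.1% and 20.1% of all tested genes. Orc4, an origin recognition subunit, went from 19.0 ± 1.07 to 15.5 ± 0.277 FPKM. Wdhd1, which links polymerase alpha to the helicase, went from 3.77 ± 0.286 to 2.75 ± 0.145 FPKM, and Top1, which relaxes supercoils, from 35.4 ± 1.25 to 31.3 ± 0.256 FPKM (limma adjusted p from 0.00784 to 0.0182). The call of Wdhd1 was lost without Bgal replicate 2 (0.0573) or Trim28 replicate 2 (0.0543), and that of Top1 without Bgal replicate 1 (0.0689), Trim28 replicate 1 (0.052) or Trim28 replicate 2 (0.0569). Of 7 chromatin assembly genes 2 fell, or 28.6%, and 0 rose. Those that fell were the histone chaperone genes Asf1a and Nasp. Asf1a had 18.5 ± 0.810 FPKM in Bgal and 12.4 ± 0.424 in Trim28, and Nasp 29.7 ± 1.75 and 20.3 ± 1.64 FPKM (limma adjusted p = 0.000453 and 0.00136). Asf1b, at 2.22 ± 0.271 and 1.70 ± 0.141 FPKM, did not pass (limma adjusted p = 0.0947).

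Regulators of G1 moved in both directions, as all tested genes did. Of 9 G1 cyclins, kinases and activators 3 rose and 2 fell. That is 33.3% and 22.2%, beside 20.1% and 21.1% of all tested genes. The D-type cyclin genes Ccnd2 and Ccnd1 rose from 75.1 ± 2.76 to 98.8 ± 1.28 and from 31.6 ± 2.88 to 39.9 ± 2.22 FPKM, while their kinase partner Cdk4 had 78.3 ± 2.85 FPKM in Bgal and fell to 62.6 ± 1.16 in Trim28 (limma adjusted p = 0.000499, 0.0107 and 0.00127). Of 10 tested E2F, DP and pocket protein genes 2 fell and 1 rose, or 20% and 10%. Rb1, the pocket protein that holds E2F factors in check, had 13.9 ± 0.792 FPKM in Bgal and 9.39 ± 0.597 in Trim28, and Tfdp2, a partner of E2F, 4.30 ± 0.569 and 2.75 ± 0.0439 FPKM (limma adjusted p = 0.00128 and 0.00729).

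E2f4, an E2F family member known mainly as a repressor, rose from 15.4 ± 0.983 to 18 ± 0.763 FPKM (limma adjusted p = 0.033), a call that was lost without Bgal replicate 1 (0.0794), Bgal replicate 3 (0.0889), Trim28 replicate 1 (0.107) or Trim28 replicate 2 (0.0895). Of 7 CDK inhibitors and genes of cyclin E turnover 2 fell and 1 rose. That is 28.6% and 14.3%, beside 21.1% and 20.1% of all tested genes. The inhibitor genes Cdkn1c and Cdkn1a fell, by a log2 difference of -0.67 and -0.63. Fbxw7, which marks cyclin E for degradation, rose from 8.67 ± 0.943 to 12.9 ± 0.582 FPKM (limma adjusted p = 0.00244).

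**Figure D4:**
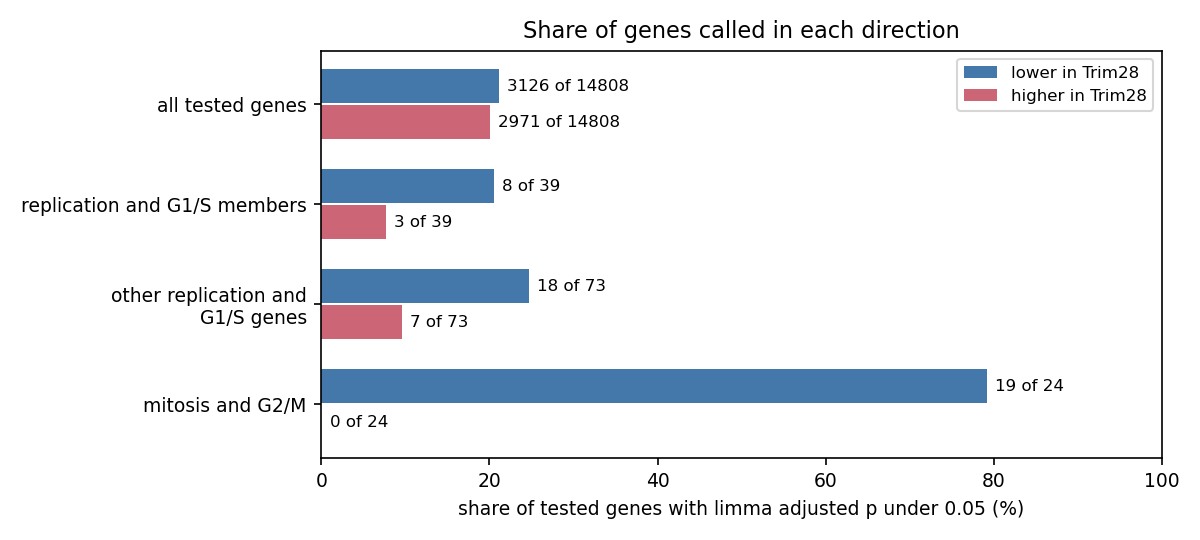
Share of tested genes with a limma adjusted p under 0.05, blue for lower and red for higher in Trim28, with the counts beside the bars. In the share lower, the members (8 of 39) lie near all tested genes (3126 of 14808), while 19 of 24 mitosis genes were lower. In the share higher, the members (3 of 39) lie below all tested genes (2971 of 14808).

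Mitosis and G2/M genes are given for comparison. Of 24 tested 19 fell, or 79.2%, and 0 rose (limma; 0 were higher at an unadjusted p under 0.05 or in limma-voom), with a median log2 difference of -0.46 beside -0.11 for the replication and G1/S members. Birc5, which guards chromosome segregation, went from 4.14 ± 0.616 to 1.28 ± 0.207 FPKM and the mitotic kinesin gene Kif23 from 2.73 ± 0.259 to 1.42 ± 0.106 FPKM (limma adjusted p = 0.000463 and 0.00258). Mki67, the proliferation marker, had a log2 difference of -0.68. The difference between the 2 lists was not tested.

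Markers of other cells moved in the same libraries, and their part in these results was not tested. Of all tested genes 20.1% rose and 21.1% fell. Of 8 fibroblast markers 7 rose and 0 fell, and their summed level was 434 to 453 FPKM in Bgal and 773 to 837 FPKM in Trim28. Of 7 mural markers 6 rose, with sums of 746 to 998 and 1592 to 1682 FPKM. Most of these sums was Acta2, at 564 to 765 FPKM in Bgal and 1284 to 1384 in Trim28. Of 5 tested leukocyte markers 5 rose, with sums over the 6 found of 23.9 to 24.3 and 56.9 to 57.8 FPKM. Kcnj8 and Adgre1 in these lists reached the filter level in no Bgal library, and Ptprc in only 1. Their higher values in Trim28 are what let these genes be tested. Of 6 cardiomyocyte markers 3 fell and 1 rose, with sums of 11007 to 11774 and 9719 to 9839 FPKM, by far the highest of the marker lists in both groups. Most of these sums was Tnnt2 (means 4471.0 and 3759.4 FPKM) and Myh6 (3384.7 and 3194.5 FPKM). Of 2 tested endothelial markers Tek rose and Kdr fell. The sums over the 5 found were 9.33 to 10.4 and 8.27 to 8.97 FPKM. They hold Cldn5 at 0, which is uncertain because it overlaps Cdc45. Of 3 epicardial markers Wt1 and Msln rose and Upk3b fell, with sums of 3.87 to 4.76 and 4.17 to 5.71 FPKM, so members moved in opposite directions under similar sums. The 1 tested Schwann cell marker was not called, and the 3 found summed to 1.39 to 1.95 and 1.52 to 1.73 FPKM.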

How the data were processed

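Poly(A) RNA was measured in 6 libraries, 3 Bgal and 3 Trim28. Per the file headers, the deposited values are FPKM per gene and library. Gene lengths and coordinates are those of the same table, which names no build. The submitters' processing notes name HISAT2 2.0.5 and DESeq2 without their roles. Counting tool, strand setting and annotation: not given in the sources used here.

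Multiplying FPKM by gene length gave whole multiples of a fixed step in each library, for 100% of values above 0 at a tolerance of 0.01, and so recovered the reads. A single read on 1 kilobase was worth 0.0281 to 0.0381 FPKM. FPKM depends on the library total, so genes that take many reads lower the values of others. Values were compared as log2(FPKM + 1) with limma 3.58.1 (R 4.3.3, two-sided, variance trend on mean level) over the 14808 genes that had 0.5 FPKM or more in 3 or more libraries, with Benjamini-Hochberg adjustment and a threshold of 0.05. The fit was checked on simulated reads. Replicates varied beyond sampling noise (chi-square over its degrees of freedom 5.77 to 17.4), so none was counted as a repeat of another.

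The members and all lists were chosen with earlier results of these data known. Library values are given for the 3 members of each role group with the smallest limma p and for members that rose. Pcna lies outside this rule and was added after its values were seen. Other members are summarised, and of each further list the 3 genes with the smallest p are named. Sequences are shown for up to 5 of the members so given, in order of p. Alternatives were pseudocounts of 0.1 and 0.5, no filter or 1 FPKM, median-of-ratios and TMM scaling, a replicate block, each library left out and limma-voom on the recovered reads.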

Additional observations from a re-analysis of the deposited data

How the results depend on the processing

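The numbers of members called were recomputed under 14 alternatives. With each library left out in turn, 6 to 10 members were lower and 2 to 3 higher, 4737 to 5556 of all genes were called, 17 to 18 mitosis genes and 12 to 17 further replication and G1/S genes were lower, and the median log2 difference of the members ran from -0.17 to -0.08. Without a filter 6 members were lower and 2 higher, beside 2726 and 2752 of all 23443 genes, and Mcm3, Mcm4 and Prim2 lost their calls. With the other pseudocounts 8 were lower and 3 higher, and with median-of-ratios or TMM scaling 7 and 3. The filter of 1 FPKM gave 9 and 3 of 35 members tested, beside 3118 and 2849 of all 13269 genes. Limma-voom on recovered reads, chosen after seeing the data, gave 10 and 3, beside 3431 and 3076 of all 14808 genes. Of the members called, 6 of 8 that fell and 2 of 3 that rose were called in all 14, the exceptions being Mcm3, Mcm4 and Prim2. Of the 39 members, Pcna, Rfc2, Rfc5, Orc1 and Pole2, with differences near 0, changed sign under some alternative, and none of these was called under any. Necab3 was not recomputed. With the replicate block 8 members were lower and 3 higher, and 5666 of all genes were called. The deviations of libraries with the same number correlated at -0.02, 0.13 and 0.01, and 1 of the 3 numbers correlated best with its own, so the block is only an alternative. The read share of the near copy of Lig1, given below, did rise with the number in both groups. The planned edgeR and DESeq2 fits were not run, and limma-voom was run on the recovered reads in their place. Depth limited the lowest members, such as Pole2 with 25 to 41 reads per library.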

Other observations

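The 8 members that fell lay at similar depths below the Bgal mean in each Trim28 library, with a median log2 difference of -0.54, -0.47 and -0.59 in replicates 1, 2 and 3, although Trim28 itself stood at 2923, 2890 and 980 FPKM there. The 3 members that rose lay 0.44, 0.35 and 0.41 above it. These are values of genes chosen by their call, and no relation to the level of Trim28 was tested.

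The share of reads that the near copy of Lig1 took differed more between libraries of a group than between the groups. By replicate number it was 3.95%, 24.4% and 44.4% in Bgal and 5.68%, 40.2% and 44.6% in Trim28. The share thus rose with the number in both groups. Whether libraries with the same number share a source is not stated. Both rows together carried 21.2, 32.3 and 25.4 RPM in Bgal and 15.8, 21.6 and 23.1 in Trim28, which overlapped.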
